A study of Homo sapiens with 34 samples.

Results

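The interferon response and antigen presentation genes examined here were a list of 40 gene symbols, taken by name from the 3′ UTR count tables of a SLAM-seq experiment and summed per gene. Of these, 38 had at least 1 interval of their own among 19041 genes, and 30 reached a mean of 1 CPM (counts per M reads, relative to the 3′ UTR reads of a library) over all libraries, as did 11040 genes in the whole experiment. The cells were hTERT-RPE1, an immortalised human retinal pigment epithelial line, with a doxycycline-inducible construct against CCND1, the gene of cyclin D1, which drives entry into S phase. In the line labelled knockdown an shRNA against the CCND1 3′ UTR was induced and the cells are the larger ones in the study's account. In the line labelled overexpression the shRNA was induced along with a resistant allele of CCND1, and the cells are smaller. Both lines were polyclonal for CCND1 expression by the study's account, all samples received 0.5 µg/mL doxycycline, and no uninduced cells were analysed here. From day 4 of induction the cells were pulsed for 24 h with 10 µM 4-thiouridine (s4U), a uridine analogue that reads as C after alkylation, and were then chased in 1 mM uridine for up to 1440 min. Unlabelled cells were given uridine during the pulse and no s4U. Since the labels give every sample the same genotype, with both constructs, the lines were told apart by the sample titles. There were 17 libraries of each line, in 2 time courses per line (knockdown courses 1 and 2, overexpression courses 1 and 2), of which 4 libraries were unlabelled.

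Interferons are secreted proteins that cells release on sensing viral nucleic acid. Through JAK kinases and STAT transcription factors they switch on interferon-stimulated genes, many of which carry in their promoter an interferon-stimulated response element, a repeat of GAAA that is bound by IRF proteins. The products include sensors of double-stranded RNA, enzymes and membrane proteins that block viral replication, the ubiquitin-like protein ISG15, and the machinery that loads peptides onto MHC class I molecules for display to T cells. Epithelial cells outside the immune system keep the class I machinery on without infection, whereas many of the antiviral genes are low until interferon is sensed.

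The response element core, GAAANNGAAA on either strand with overlapping matches counted, was sought from 250 bases before to 50 bases after the RefSeq start of each gene (GRCh38.p14, the build of the deposited tables being hg38). A promoter was matched for 32 of the 40 genes, DDX58 under its RefSeq symbol RIGI, and 21 of these 32 (65.6%) held the core, against 3.57% of all 35116 promoters. The core stood in 4 of 6 promoters of members that were higher in knockdown (66.7%), in 1 of 2 of those that were lower, and in 11 of 16 of measured members that did not pass the test (68.8%). The stretches upstream of the start that held it in the members called between the lines, and in B2M, are given 5′ to 3′ on the gene's strand because these genes carry the results below. Capitals mark the core.
IFI44L (chr1:78620264-78620404, plus strand): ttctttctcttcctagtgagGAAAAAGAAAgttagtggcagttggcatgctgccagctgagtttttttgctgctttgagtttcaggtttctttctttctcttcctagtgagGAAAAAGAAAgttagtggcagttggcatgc
IFI6 (chr1:27672256-27672368, minus strand): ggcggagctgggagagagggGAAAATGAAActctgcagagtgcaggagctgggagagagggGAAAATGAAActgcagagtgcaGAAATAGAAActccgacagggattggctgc
IFIT3 (chr10:89327821-89327904, plus strand): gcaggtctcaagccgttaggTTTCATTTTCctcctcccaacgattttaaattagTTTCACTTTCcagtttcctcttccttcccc
ISG15 (chr1:1013364-1013419, plus strand): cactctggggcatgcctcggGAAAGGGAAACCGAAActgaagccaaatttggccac
OAS3 (chr12:112938311-112938473, plus strand): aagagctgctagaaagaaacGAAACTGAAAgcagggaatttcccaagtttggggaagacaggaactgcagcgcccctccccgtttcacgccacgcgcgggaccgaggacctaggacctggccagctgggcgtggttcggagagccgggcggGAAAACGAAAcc
B2M (chr15:44711353-44711408, plus strand): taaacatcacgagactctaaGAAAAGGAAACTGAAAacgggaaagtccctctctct
The IFI44L stretch held the same 10-base match at 2 places, with its first base at -164 and -73 from the start (counted with the first transcribed base as 0), and the matches in ISG15 and in B2M overlapped each other. No match was found in the windows of DDX58, UBE2L6 and HLA-B. A match is a description of the letters in the window and not a bound site.

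The libraries held 14712332 to 44480703 3′ UTR reads. Within a line each library correlated with the rest at r of 0.966 to 0.991 over 7703 genes except for 3, the 720 min library of overexpression course 1 (0.862) and the unlabelled libraries of knockdown course 1 (0.891) and overexpression course 1 (0.923). CCND1 3′ UTR reads were at 141 and 154 CPM in the knockdown courses and 54.7 and 61.9 CPM in the overexpression courses. The shRNA is induced in both lines and targets this very UTR, which the added allele may lack, so these reads check neither label. Directions follow the labels. The keratins KRT8 and KRT18 averaged 525 and 549 CPM in knockdown, against 273 and 336 CPM in overexpression, whereas the pigment epithelium genes RPE65, BEST1, RLBP1, TYR and PMEL reached at most 1.12 CPM in any library and SERPINF1 was at 0. MITF, the transcription factor of pigment cells, was the 1 of these 7 markers above that level, at a mean of 77.4 CPM in knockdown and 40.1 CPM in overexpression. The fibroblast marker THY1 averaged 526 CPM in knockdown and 299 CPM in overexpression. In the same order the fibroblast markers COL1A1 and PDGFRA averaged 30.65 and 24.26 CPM, and 0.57 and 0.30 CPM. From the list of the keratins, VIM averaged 8014 and 7896 CPM and CDH2 495.5 and 518.7 CPM. CDH1, also of that list, was near 0, at 0.006 and 0.04 CPM. The part of these marker differences in the results was not tested. The 7 leukocyte and 3 plasmacytoid dendritic cell markers examined were also near 0, with CD14 highest at 1.34 CPM in 1 library and HLA-DRA, IL3RA and CLEC4C at 0 in every library. Each library was made from 75 ng of RNA and CPM is a share of its reads. Levels here are therefore relative and do not measure RNA per cell, which may differ between cells of different size. In bulk libraries, fewer cells that express a gene and a smaller share of it in each cell cannot be told apart.

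Of the 40 genes 10 gave no measured level. IFITM1 and IRF9 had only intervals shared with another gene, so no level of their own was taken. MX1, OAS1, OAS2, OASL, IFI27, ISG20, STAT2 and BST2 stayed under a mean of 1 CPM. In single libraries MX1, a GTPase that traps viral nucleocapsids, reached at most 28 reads and was at 0 in 15 of 34 libraries, OASL reached at most 14 reads, and BST2, which tethers budding virions, was at 0 in 23. The interferon genes themselves were low as well. IFNA1, IFNL1, IFNL2 and IFNL3 had no read in any library, IFNG at most 1 read and IFNB1 at most 4. The 1 interferon gene measured was IFNE, the interferon of the female reproductive tract epithelium, at 7.92 and 6.82 CPM in the knockdown courses, against 2.11 and 1.66 CPM in the overexpression courses.

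Between the lines, 7 of the 30 measured members were higher in knockdown and 2 were lower, while 21 did not pass the test. Across all 13165 genes tested 21.8% were called, 11.1% higher and 10.7% lower, against 9 of 30 members (30%). The 13165 genes include some under a mean of 1 CPM, whereas the 30 members do not. Over all 38 members with an interval of their own, 23.7% were called. The median log2 difference of the members was 0.16, against -0.01 over all genes, and 18 of 30 members had a value above 0. The values of the courses did not overlap between the lines for 22 of 30 members, against 60.8% of the 13165 genes. Those of the single libraries, 17 against 17, were apart for 0 of 30 members, against 2.91% of 11040 genes. The question addressed was whether mRNA levels differ between the line of larger cells and the line of smaller cells. Cell size, CCND1 construct and line change together here and cannot be told apart. Counts were summed for each course over the 6 samples that all courses share, which gave 2 courses against 2.

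**Figure D1:**
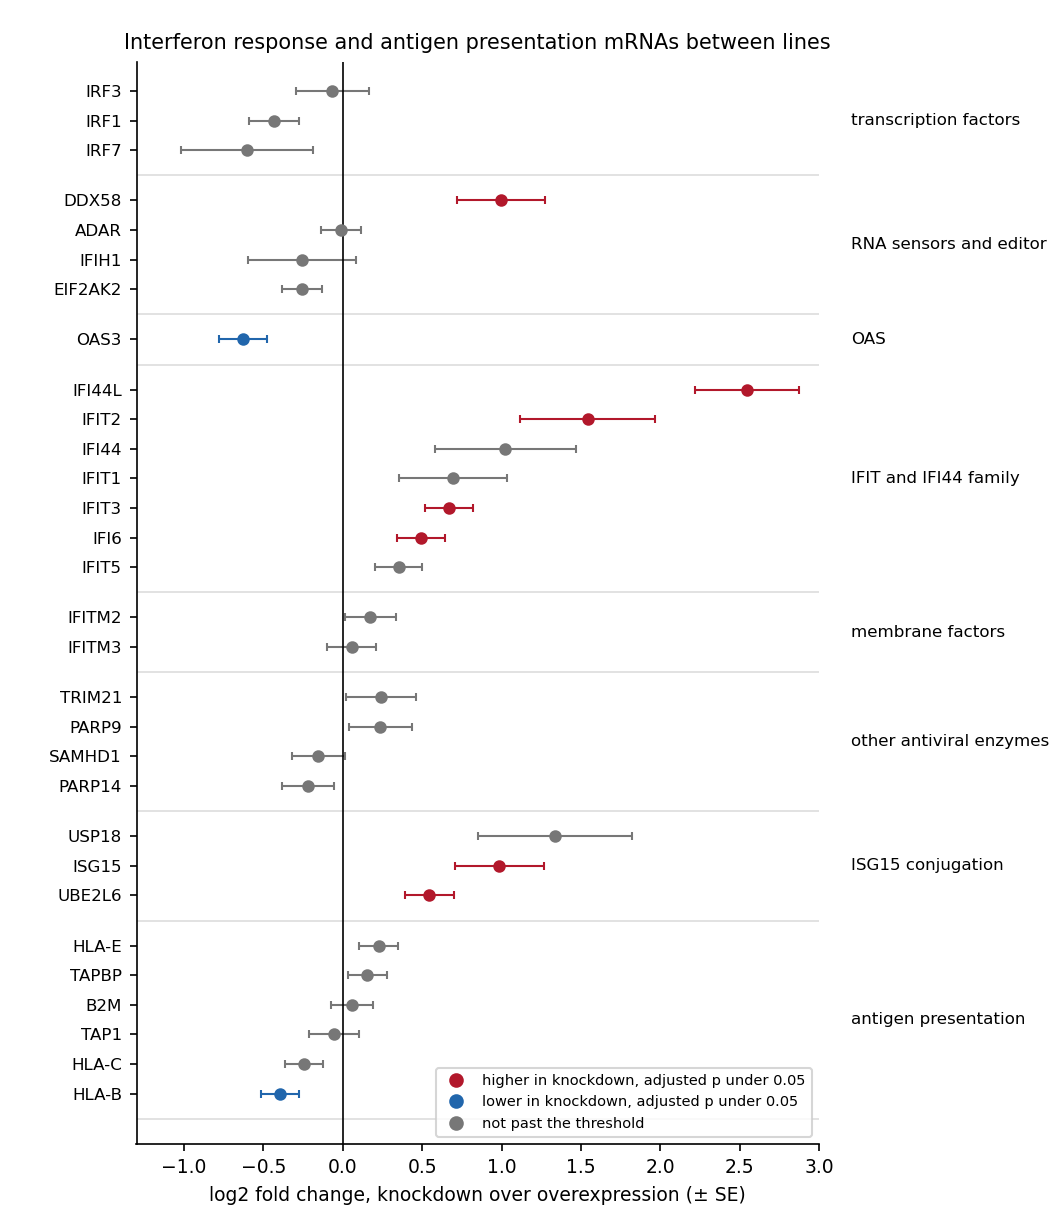
Log2 fold change of the 30 measured members, knockdown over overexpression, with its standard error (SE), from counts of 2 courses per line. Members are grouped by role, and colour marks adjusted p under 0.05. IFI44L at 2.55 is the highest and OAS3 at -0.63 the lowest. The values of the group marked IFIT and IFI44 family, which includes IFI6, of ISG15 conjugation and of the membrane factors all lie above 0.

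The group of IFIT, IFI44 and IFI6 genes held the largest differences, with 4 of 7 measured genes higher, 0 lower and all 7 values above 0. IFI44L, an interferon-induced protein that in human cells restrains the interferon response, was at 9.33 and 7.09 CPM in the knockdown courses, against 1.86 and 0.98 CPM in the overexpression courses. That was a fold change of 5.84 (log2 of 2.55, SE 0.33, adjusted p of 5.3e-04). Its 17 knockdown libraries held 3.92 to 13.6 CPM (median 6.62) and the 17 overexpression libraries 0.04 to 6.97 CPM (median 0.98). The overlap came from the unlabelled library of overexpression course 1, at 6.97 CPM on 100 reads, since the next highest overexpression library was at 2.45 CPM and below every knockdown library. The difference was positive at each of the 6 shared samples taken alone, with log2 of 1.40 in the unlabelled libraries and 3.26 at 1440 min, and was 2.66 with the unlabelled and 720 min libraries left out.

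IFIT proteins bind foreign RNA and are encoded in a cluster on chromosome 10. IFIT3, which stabilises IFIT1, had 25.2 and 26.9 CPM in knockdown, against 16.2 and 16.7 CPM in overexpression (log2 of 0.67, SE 0.15, adjusted p of 0.010). IFIT2 had 2.96 and 2.17 CPM in knockdown and 0.67 and 1.09 CPM in overexpression (log2 of 1.54, SE 0.43, adjusted p of 0.026). For IFIT2 the unlabelled libraries ran the other way, at 4.01 and 2.34 CPM in knockdown and 4.95 and 2.79 CPM in overexpression (log2 of -0.24), and without them the log2 difference was 2.28. IFIT1, the sensor of RNA that lacks cap methylation, had 3.33 and 3.05 CPM in knockdown and 2.48 and 1.48 CPM in overexpression, and did not pass (log2 of 0.70, adjusted p of 0.18). Its highest library of all was again the unlabelled one of overexpression course 1, at 10.5 CPM, and with the unlabelled libraries left out it passed at a log2 of 1.12 (adjusted p of 0.018). IFI6, a membrane protein that limits flavivirus replication, was at 24.1 and 22.6 CPM in knockdown, against 17.1 and 16.3 CPM in overexpression (log2 of 0.49, adjusted p of 0.038). IFIT5, which has the family's RNA-binding fold, had 27.4 and 25.6 CPM in knockdown and 22.3 and 19.4 CPM in overexpression. IFIT5 and IFI44 did not pass, with log2 of 0.35 and 1.02.

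Of the 3 measured genes of ISG15 conjugation 2 were higher and the third also had a value above 0. ISG15, the ubiquitin-like modifier, was at 6.86 and 9.95 CPM in knockdown, against 5.21 and 3.35 CPM in overexpression (log2 of 0.99, SE 0.28, adjusted p of 0.030). Of its 17 knockdown libraries, 13 lay above the highest overexpression library (6.76 CPM), and the lowest of all was the unlabelled library of knockdown course 1, at 1.87 CPM. UBE2L6, the E2 enzyme that carries ISG15 to its targets, was at 23.7 and 25.8 CPM in knockdown and 18.1 and 15.99 CPM in overexpression (log2 of 0.55, adjusted p of 0.029). USP18, which removes ISG15, had a log2 of 1.34 (SE 0.48) with an adjusted p of 0.074, and all of its reads were multimapped, so that its level cannot be separated from those of its near-identical copies.

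Of the 4 measured sensors and editors of double-stranded RNA 1 was higher and 0 were lower. DDX58, which encodes RIG-I, was at 6.01 and 4.30 CPM in knockdown, against 2.64 and 2.54 CPM in overexpression (log2 of 1.00, SE 0.28, adjusted p of 0.026). Part of this difference lay in the unlabelled libraries, where overexpression course 1 had 2 reads (0.14 CPM) and the log2 difference was 3.10. With the unlabelled and 720 min libraries left out it was 0.70 and missed the threshold (adjusted p of 0.095). IFIH1, which encodes the related sensor MDA5, was at 2.03 and 1.77 CPM in knockdown and 2.60 and 1.97 CPM in overexpression (log2 of -0.26, adjusted p of 0.65). ADAR, which edits double-stranded RNA, was at 155 and 132 CPM in knockdown and 138 and 153 CPM in overexpression (log2 of -0.01, adjusted p of 0.96). EIF2AK2, which encodes the kinase PKR that shuts down translation, had a log2 of -0.26 (adjusted p of 0.17). OAS3, the synthetase that makes the 2-5A activator of RNase L, was lower, at 17.7 and 17.9 CPM in knockdown, against 26.4 and 28.9 CPM in overexpression (log2 of -0.63, SE 0.15, adjusted p of 0.013). Its reads fell mainly in 2 intervals of chromosome 12 (hg38). The distal one (112969974 to 112973249) had 11.98 and 10.9 CPM in knockdown, against 20.2 and 20.7 CPM in overexpression, and the proximal one (112944688 to 112945336) 5.68 and 6.43 CPM, against 5.96 and 8.09 CPM. In the unlabelled libraries alone the OAS3 difference was 0.18, and without them it was -0.76.

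None of the 3 transcription factors, 2 membrane factors and 4 remaining antiviral enzymes was called. IRF1, an activator of class I genes, was at 26.1 and 20.3 CPM in the knockdown courses, against 32.9 and 30.1 CPM in those of overexpression (log2 of -0.44, SE 0.16, adjusted p of 0.074), and 10 of 17 knockdown libraries lay below the lowest overexpression library. With the unlabelled libraries left out IRF1 passed at -0.45 (adjusted p of 0.041). IRF3 and IRF7, which switch on interferon genes, had log2 of -0.07 and -0.60. IFITM3, which blocks virus entry at endosomes, was at 238 and 296 CPM in knockdown and 230 and 287 CPM in overexpression (log2 of 0.06, adjusted p of 0.84), with the second course above the first in both lines. PARP14, an ADP-ribosyltransferase, was at 20.4 and 19.8 CPM in knockdown and 26.6 and 20.45 CPM in overexpression. TRIM21, PARP9, SAMHD1 and PARP14 had log2 between -0.22 and 0.24.

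Among the class I antigen presentation genes 1 of 6 was lower and 0 were higher in knockdown. HLA-B, a class I heavy chain, was at 297 and 288 CPM in the knockdown courses, against 417 and 357 CPM in those of overexpression (log2 of -0.40, SE 0.12, adjusted p of 0.040). Its 17 knockdown libraries ran from 252 to 374 CPM (median 293) and the overexpression libraries from 328 to 486 CPM (median 394), and 14 knockdown libraries lay below all those of overexpression. HLA-C gave -0.24 (adjusted p of 0.17) and HLA-E 0.23 (adjusted p of 0.22), so that the heavy chains had values of both signs. B2M, the light chain that all of them share, was at 1562 and 1392 CPM in knockdown and 1555 and 1299 CPM in overexpression (log2 of 0.06, SE 0.13, adjusted p of 0.81). The peptide transporter TAP1 and the loading factor TAPBP had log2 of -0.05 and 0.16. Multimapped reads made up 0.08% of HLA-B and 0.15% of HLA-C reads, but the alleles of this line were not compared with the reference, and reads of one heavy chain gene counted for another cannot be told apart here.

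**Figure D2:**
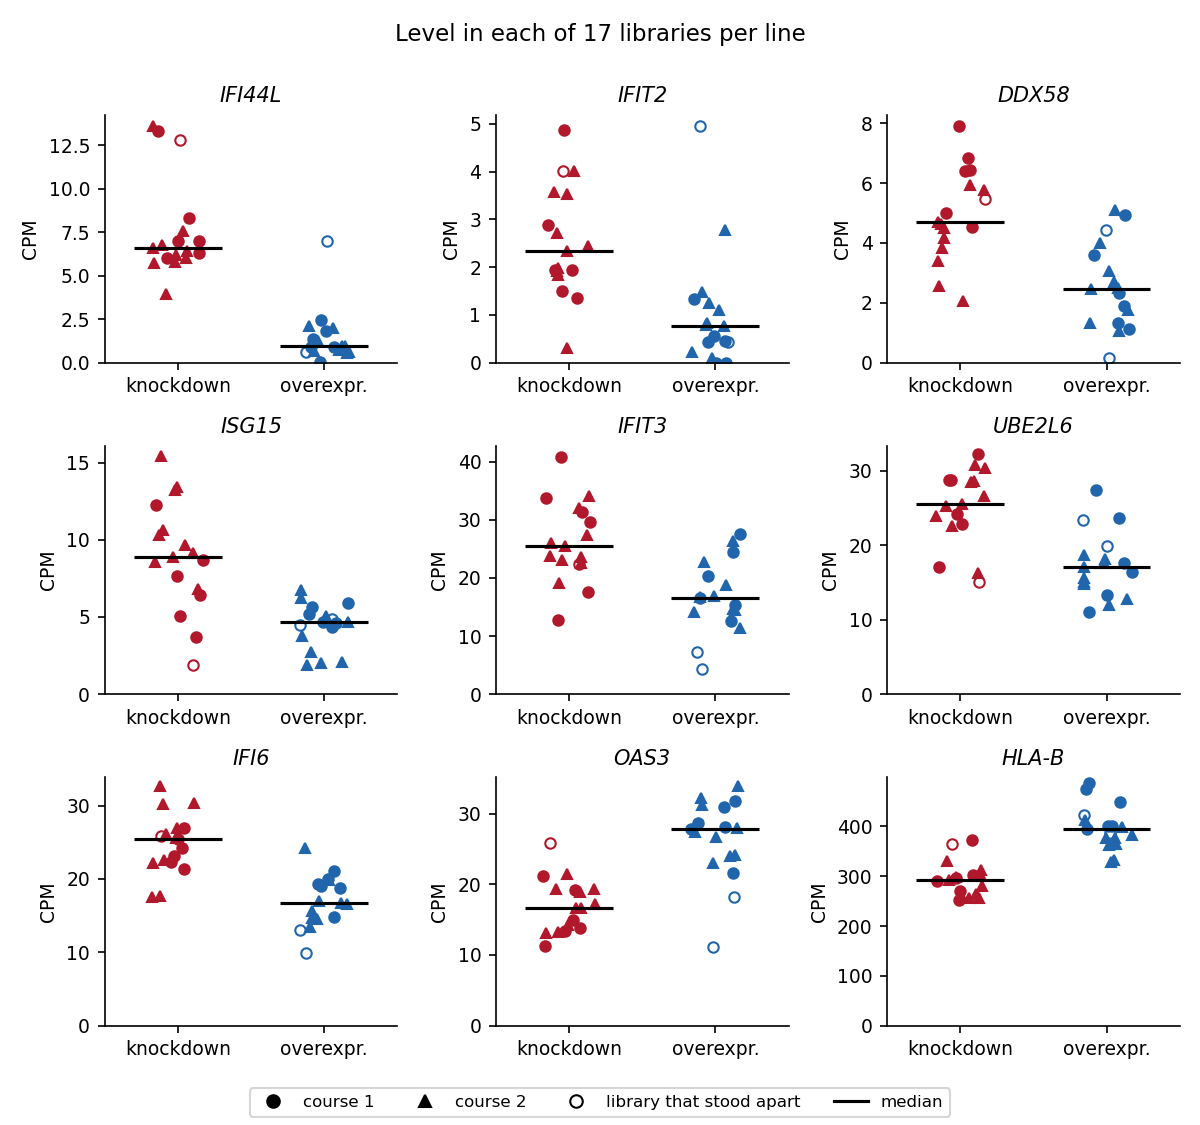
CPM of the 9 called members in each library, 17 of knockdown (left) and 17 of overexpression (right), with the median as a line. Circles are course 1, triangles course 2, and open symbols the 3 libraries that stood apart. For IFI44L a single overexpression library, at 6.97 CPM, lies within the knockdown range of 3.92 to 13.6 CPM.

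With the unlabelled and 720 min libraries left out, 8 of the 9 called members kept their calls, DDX58 lost its call, and IFIT1 and IRF1 were added. With 1 course left out, some of these calls were lost. The share of all genes called is not set beside this, so the losses are not a result about these members. The line of that course then has 1 sample, which is assumed to vary like the 2 of the other line. IFI44L kept its call in each case, with log2 of 2.18 to 3.06, whereas IFI6 lost it in each, with adjusted p of 0.073 to 0.13. IFIT3 missed it without overexpression course 1 (adjusted p of 0.051) and OAS3 without overexpression course 2 (0.079). ISG15 missed it without knockdown course 2 (0.18) and without overexpression course 2 (0.11), and IFIT2 without knockdown course 1 (0.15) and without overexpression course 1 (0.087). DDX58 kept it only without knockdown course 2, and missed it without knockdown course 1 (0.21), overexpression course 1 (0.062) and overexpression course 2 (0.057). UBE2L6 kept it only without knockdown course 1, and missed it without knockdown course 2 (0.11), overexpression course 1 (0.058) and overexpression course 2 (0.13). HLA-B kept it only without overexpression course 2, and missed it without knockdown course 1 (0.14), knockdown course 2 (0.15) and overexpression course 1 (0.24).

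Of 88 further genes of the pathway 65 were measured. In knockdown 12 of these were higher and 8 lower (30.8% called, median log2 of 0.04). Of all genes tested 21.8% were called, 11.1% higher and 10.7% lower, but these include genes under a mean of 1 CPM. The largest among those higher were IFNE (log2 of 1.98, SE 0.26, adjusted p of 5.5e-04) and LY6E, an interferon-induced membrane protein (1.39, SE 0.36, adjusted p of 0.020). The largest among those lower were RNASEH2B, a subunit of the nuclease that removes ribonucleotides from DNA (-1.10, SE 0.17, adjusted p of 0.0015), and the class I gene HLA-F (-0.92, SE 0.20, adjusted p of 0.0096). Of 14 measured receptors and signalling genes 1 was higher and 2 were lower, and of 8 nucleic acid sensing genes 0 and 1. The other interferon-stimulated genes had 10 of 29 higher and 1 lower (median log2 of 0.17). The further antigen presentation genes had 0 of 13 higher and 4 lower (median log2 of -0.07).

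At the end of the pulse the s4U itself could be examined, since unlabelled cells were collected beside the 0 min cells. None of the 30 members was called at 0 min over unlabelled by edgeR, as was none of 11826 genes (0% called), and 2 members were under an unadjusted p of 0.05. DESeq2 called 0 members too. IFIT3 had a log2 of 0.63 (SE 0.27) and HLA-E of 0.44 (SE 0.19), both higher at 0 min in 4 of 4 courses, with an adjusted p of 0.89 each. Without the libraries that stood apart these were 0.42 for IFIT3 and 0.22 for HLA-E. IFI44L was lower at 0 min in 4 of 4 courses (log2 of -1.32, SE 0.71, adjusted p of 0.89), but its log2 was 0.12 without the libraries that stood apart.

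During the chase 1 member, HLA-E, was called. At 180, 360 and 720 min over 0 min edgeR called 0 of 30 members (0, 3 and 3 under an unadjusted p of 0.05, and 0 by DESeq2), against 0.714%, 0.884% and 0.0423% of all genes. At 1440 over 0 min it called 1 member, HLA-E, which was lower, and 4.8% of 11927 genes. HLA-E, a class I molecule that presents leader peptides to natural killer cells, was at 137 and 138 CPM at 1440 min in the knockdown courses, against 179 and 164 CPM at 0 min. In the overexpression courses it was at 112 and 117 CPM at 1440 min, against 136 and 149 CPM at 0 min. The log2 change was -0.39 (SE 0.10, adjusted p of 0.026) and negative in 4 of 4 courses. Without any single course it missed the threshold, at an adjusted p of 0.11 and 0.055 without knockdown courses 1 and 2, and 0.074 and 0.12 without overexpression courses 1 and 2. At 720 min HLA-E had a log2 of -0.65 (adjusted p of 0.34). Leaving out overexpression course 1 at 720 min, a library that stood apart, it passed at -0.48 (adjusted p of 0.023), as did UBE2L6 at -0.85 (adjusted p of 0.023).

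**Figure D3:**
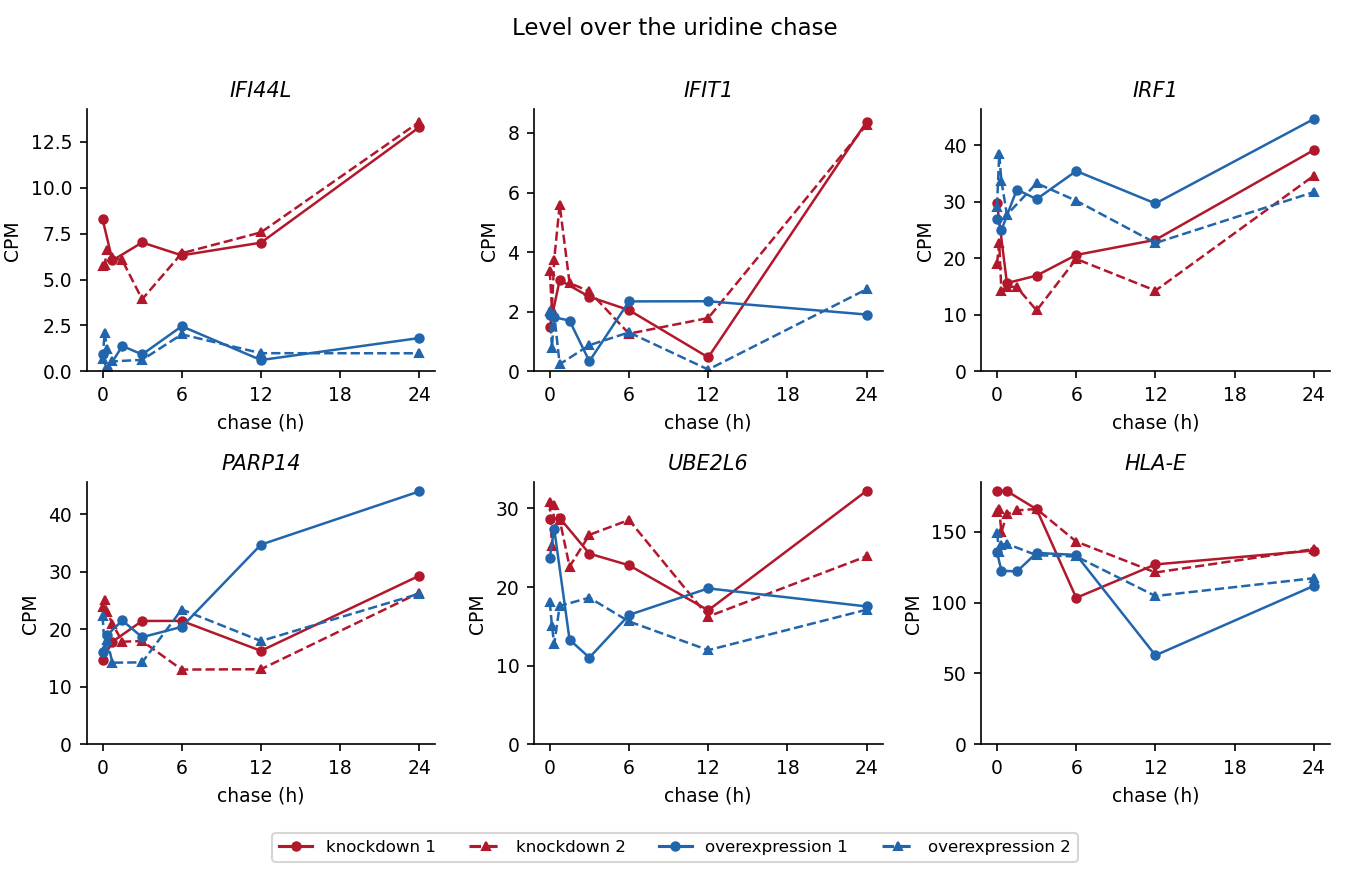
CPM of 6 members over the uridine chase in hours, in the 4 courses, knockdown in red and overexpression in blue. The 2 knockdown courses of IFI44L and IFIT1 meet at 24 h, at 13.3 and 13.6 CPM for IFI44L and 8.37 and 8.28 CPM for IFIT1, and HLA-E ends below its start in all 4 courses.

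Some members had higher values at 1440 min that did not pass. PARP14 had a log2 of 0.63 (SE 0.20, adjusted p of 0.066), IRF3 of 0.60 (SE 0.21, adjusted p of 0.097), IRF1 of 0.45 (SE 0.17, adjusted p of 0.13) and SAMHD1, which depletes deoxynucleotides, of 0.44 (SE 0.17, adjusted p of 0.15), each higher in 4 of 4 courses. IFI44L was at 13.3 and 13.6 CPM at 1440 min in the knockdown courses, against 8.30 and 5.75 CPM at 0 min, and at 1.81 and 0.98 CPM in the overexpression courses, against 0.92 and 0.66 CPM (log2 of 0.82, SE 0.35, adjusted p of 0.19). IFIT1 was at 8.37 and 8.28 CPM at 1440 min in the knockdown courses, against 1.49 and 3.37 CPM at 0 min, and at 1.91 and 2.75 CPM in the overexpression courses, against 1.89 and 2.02 CPM. The difference of this change between the lines was 1.53 on the log2 scale (SE 0.88, adjusted p of 0.96), and edgeR called 0 of 30 members for such a difference, against 0.00814% of 12280 genes. No member was under an unadjusted p of 0.05 there, and DESeq2 called 0. Among the further pathway genes RNF213 (log2 of 0.79, adjusted p of 0.0065) and GBP3 (0.68, adjusted p of 0.015) were higher at 1440 min and GBP1 was lower (-0.63, adjusted p of 0.020), the 3 called of 65.

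The T>C conversion rate at 0 min is the share of covered T bases read as C at the end of the pulse. Over the 4 unlabelled libraries the members had a rate of 0% to 0.10% (median 0.017%), and over the 4 libraries at 0 min 0.015% to 1.14% (median 0.55%), higher at 0 min for each of 29 members with reads that map to 1 place. Of the 18 members at 20 CPM or more most carried less label than other genes of that abundance, with a median of 0.63%, against 0.92% for 6407 such genes (middle 50% from 0.79% to 1.04%). EIF2AK2 was the highest, at 1.14% (95% Wilson interval 1.11% to 1.17%), and SAMHD1 the lowest of these, at 0.31% (0.27% to 0.37%). Only 0.23% of the 6407 genes had a lower rate than SAMHD1, and 1.23% a lower one than TAPBP (0.44%, 0.42% to 0.47%).

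**Figure D4:**
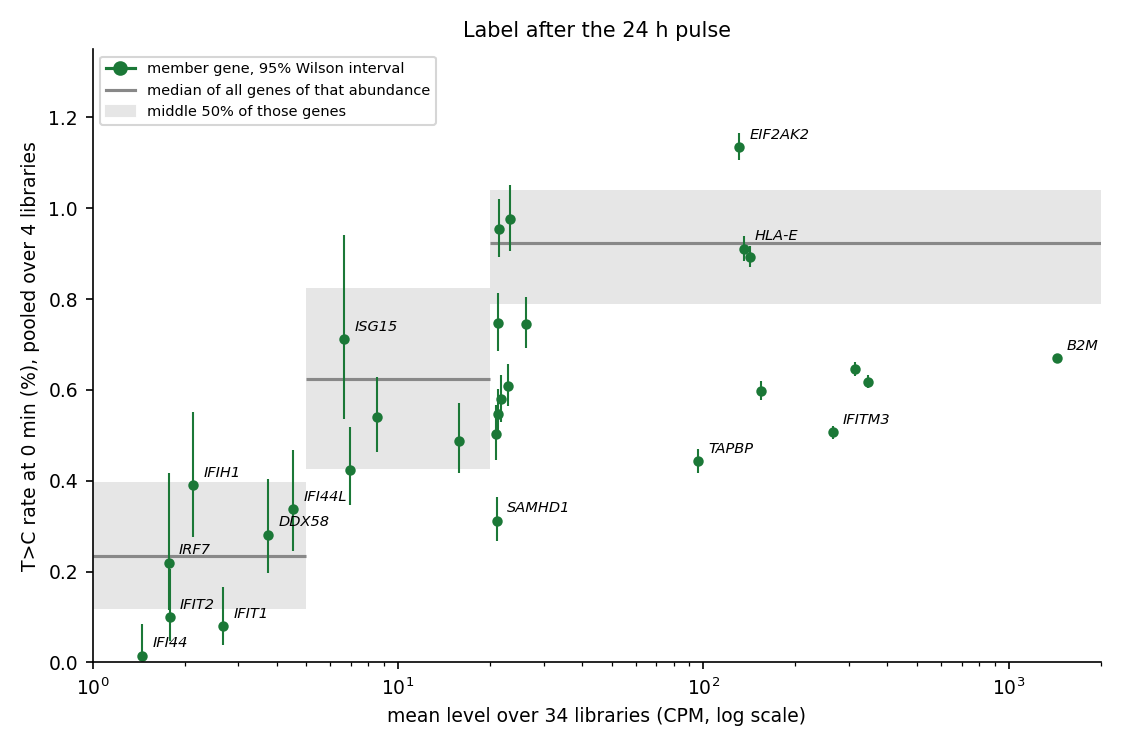
T>C conversion rate at 0 min, summed over the 4 libraries, against mean level on a log scale, for 29 members with 95% Wilson intervals. The grey line and band are the median and the middle 50% of all genes in 3 ranges of abundance, with medians of 0.24%, 0.62% and 0.92% from low to high.

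The members of lowest abundance had low conversion rates, as did other genes of that abundance. There were 7 members between 1 and 5 CPM, with a median of 0.22%, against 0.24% for 1138 such genes. IFI44 had 1 conversion in 6743 covered T bases (0.015%, 0.0026% to 0.084%), against 0 in 8980 in the unlabelled libraries. IFIT1 had 7 in 8744 (0.080%, 0.039% to 0.17%), against 5 in 8956 unlabelled, and IFIT2 7 in 7045 (0.099%, 0.048% to 0.21%), against 2 in 12008. The intervals at 0 min and unlabelled overlap for IFIT1, IFIT2, IFI44 and IRF7, each with few conversions. IRF7 had 9 in 4095, against 0 in 1150 unlabelled. All 9 were in the knockdown libraries, with 1192 covered T bases, against 2903 in overexpression. Such an overlap does not show that label was absent, and the difference was not tested. The source of the reads with little label was not tested, and this range of abundance includes IFI44L, IFIT2 and DDX58, which were called between the lines, and IFIT1. IFI44L had 36 in 10649 (0.34%, 0.24% to 0.47%), all of them in the knockdown libraries, which gave 9804 of the covered T bases, against 845 in overexpression. ISG15 had 12 in 4589 in the knockdown libraries and 36 in 2159 in the overexpression libraries, and the log2 difference of its background-corrected rate was -2.49 (SE 0.56, adjusted p of 0.75). limma called 0 of 21 members and 0 of 8592 genes for a line difference of this rate (0% called), with 2 members, ISG15 and TRIM21, under an unadjusted p of 0.05. Reads carry no molecular identifiers, so the intervals cover counting error only.

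B2M and HLA-B had some of the longest half-lives that were kept. B2M had half-lives of 29.6 and 28.6 h in the knockdown courses, against 21.4 and 19.7 h in the overexpression courses. HLA-B had 27.5 and 23.2 h in knockdown and 23.8 and 21.7 h in overexpression. Values over 24 h lie beyond the chase and are extrapolated. The fits did not correct for dilution of label by cell growth. By the study's estimate the large cells doubled more slowly than the small ones. The part of growth in these half-lives and in their line differences was not tested. By the mean over courses each exceeded 99.7% of the 3310 genes that had a half-life in every course. This rank leaves out transcripts with fits of R2 under 0.6, some of them slow to lose label. IFITM2, for example, was fitted at 21.3 to 44.7 h but missed this limit in every course. The label of B2M stood at 58.3% and 55.8% of its 0 min rate after 1440 min in the knockdown courses, and at 43.3% and 41.0% in the overexpression courses. EIF2AK2 had half-lives of 5.94 and 6.13 h in knockdown and 5.36 and 2.66 h in overexpression, in the middle of all genes (50.4% shorter). IRF1 had 1.74 and 2.40 h in knockdown and 2.33 h in overexpression course 1, with 32.98% to 41.6% of the label left at 180 min over the 4 courses and 0% to 7.39% at 360 min.

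No member was called for a half-life difference between the lines. Only 3 members had a half-life in all 4 courses, with log2 ratios of knockdown over overexpression of 0.50 for B2M (SE 0.29, adjusted p of 0.64), 0.68 for EIF2AK2 (SE 0.40, adjusted p of 0.65) and 0.15 for HLA-B (SE 0.30, adjusted p of 0.88). The median over all genes was 0.20, and limma called 0 of 3310 genes (0% called, 254 under an unadjusted p of 0.05). The 3 ratios were all above 0, as were 68.1% of those of all genes. A further 16 members had a half-life in 1 to 3 courses. Of these, IFIT3 had 3.56 and 4.60 h in knockdown and 2.01 h in overexpression course 2, ADAR 7.11 h in knockdown course 1 and 4.81 and 4.37 h in overexpression, UBE2L6 6.76 h in knockdown course 1 and 9.64 and 5.78 h in overexpression, and HLA-C 23.5 h in knockdown course 1 and 15.3 and 27.4 h in overexpression. HLA-E, the class I gene that was lower at 1440 min, had 12.5 h in knockdown course 1 and 3.97 and 9.78 h in overexpression. For TAP1 the 2 knockdown courses gave 0.59 and 6.68 h, a spread that leaves its turnover unmeasured.

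**Figure D5:**
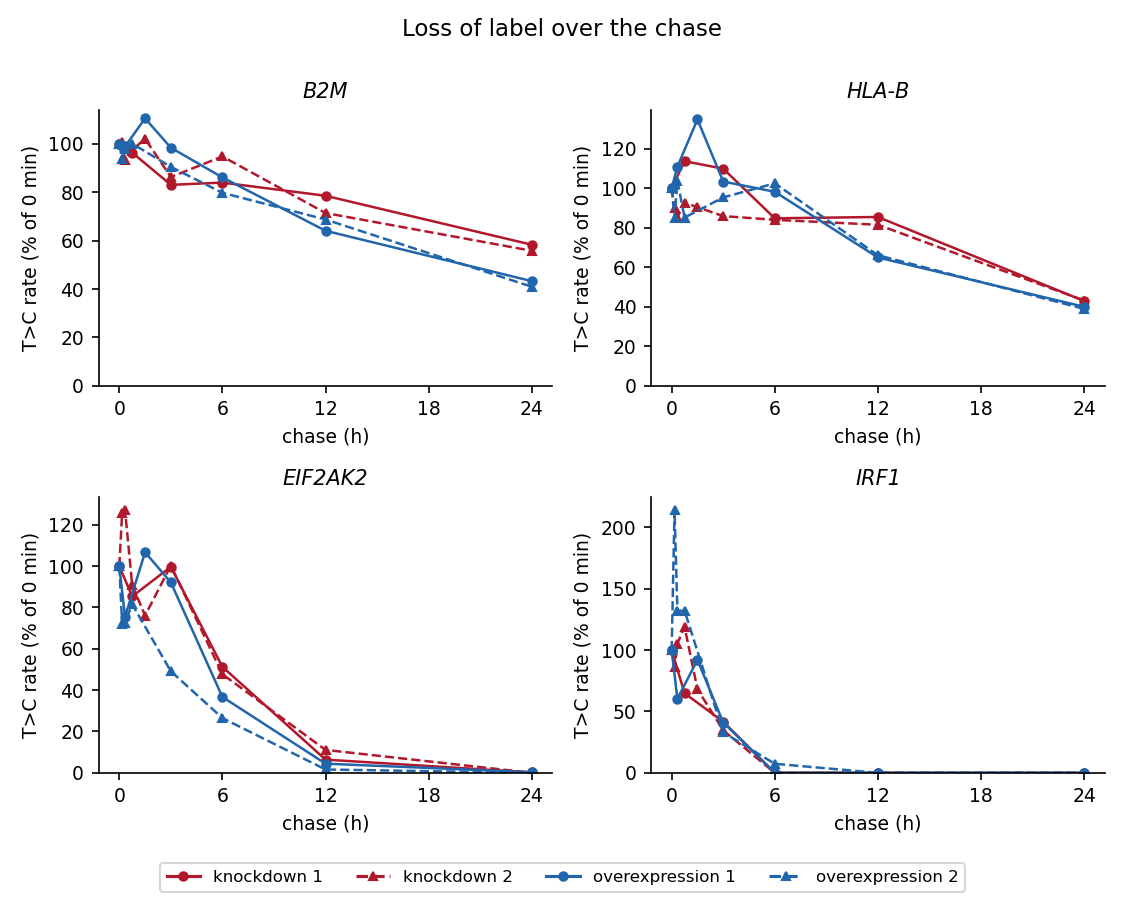
Background-corrected T>C rate as percent of its 0 min value over the chase in hours, in the 4 courses, knockdown in red and overexpression in blue. B2M and HLA-B keep 38.9% to 58.3% at 24 h, EIF2AK2 at most 11.1% at 12 h, and IRF1 at most 7.39% at 6 h.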

How the data were processed

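Each of the 34 deposited tables lists 71668 annotated 3′ UTR intervals with raw counts (reads, multimapped reads, covered T bases and T>C conversions). Per the file headers and the study's methods, a service provider ran SLAMdunk 0.4.3 for the authors on hg38 and did not pool replicates. The deposited CPM column is relative to mapped reads, and the deposited conversion rate is the fraction of covered T bases that were converted. Here both were computed again from the counts, per gene, with CPM relative to 3′ UTR reads. Only in the filters of 1 CPM on half-lives and on tested conversion rates was CPM relative to mapped reads. For the 3′ UTR annotation no release is stated in those sources.

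Intervals were summed per symbol, leaving out 1168 that name several genes and, for conversion rates and half-lives, those with over 10% multimapped reads. Level differences were tested with edgeR 4.0.16 (quasi-likelihood, TMM scaling, filterByExpr), and log2 half-lives and log2 conversion rates with limma 3.58.1, with Benjamini-Hochberg adjustment over all genes at 0.05. Chase and label tests compared 4 libraries with 4, with the line as covariate. All 30 measured members passed the filter on low counts in every level test. Half-lives came from least-squares fits of exp(-Kt) to the background-corrected rate relative to 0 min. Fits needed at least 4 time points of 1 CPM or more and R2 of 0.6 or more. Those with K at an end of the searched range (0.0001 to 5 per h) were left out as well. Scripts were tested on simulated data.

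The labels do not say whether courses came from separate cultures, so p-values measure the spread between these courses, which may be technical. Libraries of 1 line and time differed beyond counting error in all 14 pairs (chi-square over its degrees of freedom 26.3 to 393). The members, role groups and further pathway lists were chosen with earlier results of these data known. Named with full values were members past a threshold and the most abundant member of each role. IFIT1, IRF1 and others that missed it were named after their values were seen. Alternatives were other scalings, DESeq2 1.42.0, no filter, multimapped intervals left out, the replicate number as a block, and courses or samples left out.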

Additional observations from a re-analysis of the deposited data

Results flagged for a closer look

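The change at 0 min over unlabelled ran in opposite directions in the lines for 3 members. The difference between the lines was not tested for this contrast, and no member was called in it. The log2 change of DDX58 was -0.13 and -0.46 in the knockdown courses and 2.58 and 2.17 in the overexpression courses, a difference of means of -2.66. For OAS3 it was -0.90 and -0.03 in knockdown and 0.66 and 0.06 in overexpression, a difference of -0.82. For TAPBP it was 1.88 and 0.59 in knockdown and -0.31 and -0.02 in overexpression, a difference of 1.4. The unlabelled libraries of course 1 stood apart in both lines. In course 2 alone the signs were opposite as well, but the values of OAS3 (-0.03 and 0.06) and the overexpression value of TAPBP (-0.02) were very small.

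Reads were also present in intervals that no comparison used. Those that IRF9 shares with another gene held 7782 reads over all libraries, and the one that IFITM1 shares held 554, with neither assignable to 1 gene.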

How the results depend on the processing

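The count of 9 members called between the lines was 8 to 11 under both other scalings, DESeq2, no filter on low counts, multimapped intervals left out, and the unlabelled or the 720 min libraries left out, and 10 with both left out. It was 15 with the replicate number as a block and 15 with all 34 libraries as samples. With single samples it was 4 at 0 min, 5 at 180 min, 1 at 360 min, 0 at 720 min, 3 at 1440 min and 0 in the unlabelled libraries, where IFIT2 gave -0.24 and OAS3 0.18. Without 1 course it was lower, with 1 line reduced to 1 sample and no share of all genes set beside it. The choices of single samples other than 0 min and unlabelled, of leaving out both samples, and of leaving out the libraries that stood apart were made after seeing the data. The median log2 difference of 0.16 was -0.01 at 360 min alone and 0.09 to 0.25 without 1 course. The member count at 720 over 0 min was 2 without the libraries that stood apart and 0 to 1 without 1 course. At 1440 over 0 min it was 2 with no filter, where PARP14 was added, 2 with the replicate block, where IRF3 was added, and 0 to 1 without 1 course. The median log2 half-life ratio of 0.50 was 0.13 to 0.56 without 1 course, over 3 to 7 members. The label, 180 min, 360 min, line difference of the chase, half-life and conversion rate counts stayed at 0 in every alternative, the replicate block included. Over all genes the count of 2874 between the lines was 5266 with the block, 5303 with all libraries, 1845, 1870, 1157, 1 and 1288 at 0, 180, 360, 720 and 1440 min alone and 6 in the unlabelled libraries. At 180, 360, 720 and 1440 over 0 min DESeq2 called 155, 209, 132 and 861 genes, against 85, 105, 5 and 573 by edgeR, and without the libraries that stood apart edgeR called 312 at 720 min. Courses of the same number deviated together between the lines (r of 0.481 over 9053 genes), but the labels do not pair them. Depth limits members of few reads, such as DDX58 with 2 reads in 1 unlabelled library. The cause of these shifts was not tested.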
